A study of Macaca fascicularis with 6 samples.

Results

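FOLR2 interstitial macrophages of the lung were studied across 6 male cynomolgus monkeys, and 931 cells of 25388 that passed quality control met the rule for them. A cell was taken as one of them when at least 2 of the 3 complement genes C1QA, C1QB and C1QC and the folate receptor gene FOLR2 were detected (at least 1 UMI, a unique molecular identifier that marks 1 captured RNA molecule), when at most 1 of the alveolar macrophage genes FABP4, MCEMP1 and CHIT1 was detected, and when the lymphocyte genes CD3D, CD3E and MS4A1 and the dendritic cell gene CLEC9A had no UMI. These measured values chose the cells, so these 11 genes of the rule are described here and not tested. Quality control also limited mitochondrial genes to at most 25% of UMIs, and ND4L of these was nevertheless among the genes tested for asthma. The asthma monkeys (replicates 8, 10 and 11) were sensitized under the skin with Ascaris suum antigen at 1 mg/mL in adjuvant and challenged through the nose with the antigen at 10 mg/mL, and the control monkeys (replicates 1, 2 and 3) received saline in its place. All were 3 to 5 years old, and lungs were collected in week 11 and dissociated into single cells for 3′ droplet sequencing with 1 library per monkey. Each p-value for asthma against control therefore measures the spread between single libraries of different monkeys, and 3 libraries per group were available. The tests that set these cells against alveolar macrophages took the library as a block. Their p-values measure how the difference between the cell sets varied over the 6 libraries.

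Lung macrophages fall into alveolar macrophages, which lie in the airspace and take up surfactant lipids, and interstitial macrophages, which lie in the tissue around vessels, nerves and airways. Interstitial macrophages are known for complement C1q, scavenger receptors, major histocompatibility complex (MHC) class II and chemokines. FOLR2, which binds folate, marks tissue-resident macrophages in several organs, and some of them also carry the hyaluronan receptor LYVE1. The position of a cell in the tissue was not measured here, so the name rests on the genes alone. It stands for all cells that met the rule, and part of them, in clusters 3, 4, 6 and 7 described below, were led by genes that go against it.

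Control replicates 1, 2 and 3 held 230, 57 and 97 of the cells, and asthma replicates 8, 10 and 11 held 68, 337 and 142. They held 2123125, 908836 and 869224 UMIs in the control libraries and 901080, 4947483 and 1144424 in the asthma libraries, with a median of 11051 UMIs per cell. Of 25388 cells, 3892 had at least 2 of the C1Q genes, 1644 of these also had FOLR2, and 1041 of those had at most 1 of the alveolar genes. The last step removed 110 cells, 84 with CD3D, 49 with CD3E, 14 with MS4A1 and 9 with CLEC9A. At the lower edge, 167 members carried 1 FOLR2 UMI and 93 carried 2, while the median was 5 and the highest 48. One alveolar gene was detected in 321 members and none in 610, and 603 cells just outside had FOLR2 and at least 2 alveolar genes. These excluded cells numbered 85, 39 and 39 in the control libraries and 261, 89 and 90 in the asthma libraries, so asthma replicate 8 lost the most.

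Some libraries stood apart before any comparison. Asthma replicate 10 alone gave 337 of the 931 cells. In control replicate 2 the 6 mesothelial genes were high, with sums of 55.7, 1302 and 7.48 CPM in the control libraries and 71.3, 148 and 16.4 CPM in the asthma libraries and the lectin gene ITLN1, the most abundant, at 50.7, 1225 and 6.42 CPM in the control libraries and 57.5, 117 and 10.2 CPM in the asthma libraries. Asthma replicate 8 was high in stromal genes, with the proteoglycan gene DCN at 25.3, 18.7 and 3.21 CPM in controls 1, 2 and 3 and at 321, 58.3 and 25.8 CPM in asthma monkeys 8, 10 and 11. Of all barcodes, 137 occurred in 2 libraries, 5 members had a barcode that was also in another library, and 0 barcodes were members in both. The highest Scrublet doublet scores were held by 21 members (2.26%) and by 3.41% of all cells. Asthma replicate 10 held 14 of the 21, which was 4.15% of its members against 3.77% of its cells.

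The label was checked against 6 marker genes, given as levels because FOLR2, C1QA and C1QC chose the cells. Levels are CPM, the UMIs of a gene over all UMIs of the summed cells of a library, scaled to 1000000 and by the TMM method, and since each UMI is 1 molecule counted at its 3′ end, they were not divided by gene length. FOLR2 was at 625, 515 and 691 CPM in controls 1, 2 and 3 and at 517, 584 and 588 CPM in asthma monkeys 8, 10 and 11, a narrow range in which both groups overlapped. In alveolar macrophages of the same libraries, 1744 cells with at least 2 C1Q genes and at least 2 of FABP4, MCEMP1 and CHIT1, FOLR2 was at 19.6, 18.8 and 13.2 CPM in the control libraries and 73.2, 56.7 and 81.4 CPM in the asthma libraries. The alveolar values were thus all lower than those of the FOLR2 macrophages, and the asthma libraries were the higher ones among them.

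C1QA was at 3144, 2967 and 3143 CPM in the control libraries and 2947, 3089 and 3047 CPM in the asthma libraries, and C1QC at 2851, 2625 and 2732 CPM in the control libraries and 2771, 3077 and 2385 CPM in the asthma libraries. TREM2, a lipid-sensing receptor that did not enter the rule, was at 247, 274 and 273 CPM in the control libraries and 270.3, 264 and 144 CPM in the asthma libraries, with asthma replicate 11 the lowest. Its alveolar levels were 25.4, 17.7 and 22 CPM in the control libraries and 17.5, 120.3 and 63.5 CPM in the asthma libraries, below the FOLR2 macrophages in 6 of 6 libraries. SLCO2B1, an organic anion transporter, was at 279.7, 365 and 482 CPM in the control libraries and 401, 435 and 340.3 CPM in the asthma libraries and was above the alveolar level in 5 of 6 libraries, all but asthma replicate 11. ADAMDEC1, a protease, was at 29.5, 407 and 65.2 CPM in the control libraries and 125, 448 and 100.1 CPM in the asthma libraries and above the alveolar level in 3 of 6 libraries. The levels of FOLR2 and the C1Q genes follow from the rule, so of the 6 markers only TREM2, SLCO2B1 and ADAMDEC1 bear on the label, and of these only TREM2 was above the alveolar level in 6 of 6 libraries.

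**Figure D1:**
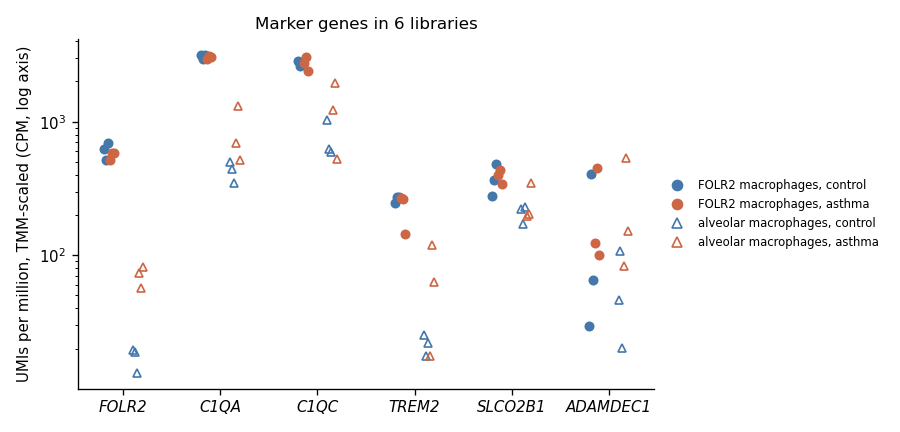
Levels of 6 marker genes in CPM (TMM-scaled, log axis) in FOLR2 macrophages (filled circles) and alveolar macrophages (open triangles), 1 symbol per library, control in blue and asthma in orange. FOLR2, C1QA, C1QC and TREM2 lie above the alveolar level of the same library in 6 of 6 libraries, SLCO2B1 in 5 and ADAMDEC1 in 3.

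The detection of TREM2 was also compared at equal depth. After each cell was thinned to 2000 UMIs, which left 900 of 931 members, 1732 of 1744 alveolar macrophages and 5456 of 5733 T cells, TREM2 was found in 33.7% of the FOLR2 macrophages, 6.58% of alveolar macrophages and 0.0733% of T cells, which should lack it. Without thinning the shares were 74.7%, 27.5% and 0.279%, at median depths of 11051, 22800 and 3784 UMIs. STAB1, a scavenger receptor of sinusoidal and tissue macrophages, was found in 25.6%, 0.751% and 0.312% of the thinned cells and in 45.8%, 3.21% and 0.924% without thinning.

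Whether the FOLR2 macrophages were more frequent in asthma was asked per library. In control replicates 1, 2 and 3 their share of all cells was 5.10%, 1.62% and 2.39%, and in asthma replicates 8, 10 and 11 it was 1.58%, 7.14% and 3.32%. The mean was 3.04% ± 1.83 (SD, n = 3) in control and 4.01% ± 2.85 (SD, n = 3) in asthma. The groups overlapped, with the lowest and the highest share both in the asthma group, and the difference of 0.977 percentage points had p = 0.7 in the two-sided exact permutation test, whose smallest p with 3 against 3 libraries is 0.1. Without asthma replicate 10 the difference turned to -0.587 percentage points. The share also depends on the limit on alveolar genes. Cells with at least 2 C1Q genes and FOLR2 numbered 322, 113 and 150 in the control libraries and 345, 468 and 246 in the asthma libraries. At most 1 alveolar gene was left in 237, 74 and 111 of them in control and in 84, 379 and 156 in asthma. Asthma replicate 8 thus lost the most at this step, and shares without it were not tested. The Wilson 95% interval was 6.44% to 7.91% in asthma replicate 10 and 1.25% to 1.998% in asthma replicate 8. Such intervals and the limits below cover counting error only.

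Taken over C1Q macrophages alone (3370 cells with at least 2 C1Q genes and none of the lymphocyte genes or CLEC9A), the share was 23.1%, 23.9% and 30.7% in the control libraries and 13.5%, 37.8% and 33.6% in the asthma libraries. Asthma replicate 8 was the lowest and the other 2 asthma libraries the highest of all 6. The difference was 2.38 percentage points (p = 0.8, two-sided exact permutation test), and it was -2.37 without asthma replicate 10 and -0.269 without asthma replicate 11. Without asthma replicate 8 it was 9.77 and the groups no longer overlapped (p = 0.2, two-sided exact permutation test). After thinning to 2000 UMIs the differences were 1.09 and 1.41 percentage points over both denominators. In suspensions of dissociated lung, a lower share of cells and a lower recovery of these cells cannot be told apart.

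**Figure D2:**
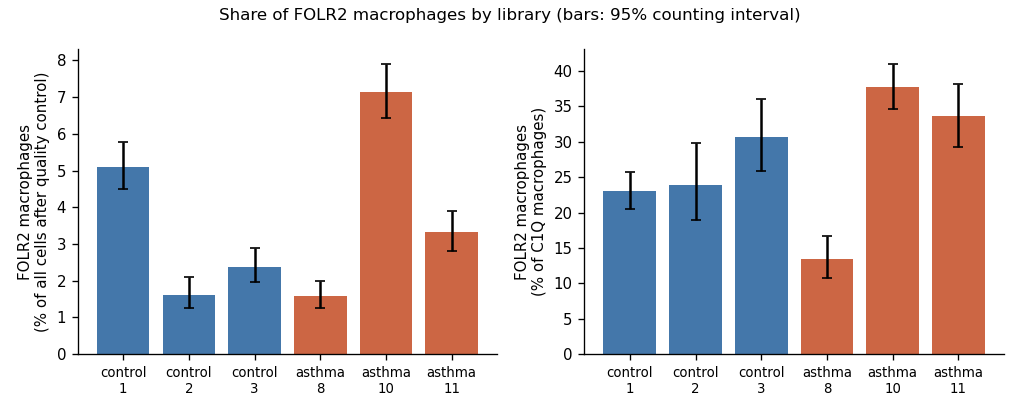
Share of FOLR2 macrophages by library in percent of all cells after quality control (left) and of C1Q macrophages (right), control in blue and asthma in orange, with Wilson 95% counting intervals as bars. The asthma libraries span 1.58% to 7.14% of all cells and enclose the 3 control libraries.

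The FOLR2 macrophages were not uniform. Clustering of the 931 cells gave 7 clusters, described here by their leading genes with no test and no new names, since the clusters were made from the expression of these same cells. The levels of clusters are CPM without TMM scaling. Cluster 1 (229 cells) was led by PLA2G2D, a secreted phospholipase, at 443 against 44.7 CPM in the other members, followed by CXCL9, IL4I1, IFI27, IDO1 and ADAMDEC1. Of its cells, 173 came from asthma replicate 10, where they made up 51.3% of the members, and 1 came from asthma replicate 11. Cluster 2 (198 cells) was led by PLXDC1 and MAMDC2, the latter at 339 against 126 CPM in the other members, with the growth factor IGF1 and the lectin CD209, and it was the largest cluster in control replicate 3 at 48.5%. Cluster 3 (173 cells) was led by MCEMP1, S100A8 and S100A9, genes of alveolar macrophages and monocytes, with MCEMP1 at 246 against 18.5 CPM in the other members, and these leading genes go against the label.

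Cluster 4 (162 cells) was led by genes of conventional dendritic cells. FCER1A, a chain of the IgE receptor, was at 86.3 against 1.51 CPM in the other members, and the lectin CLEC10A, the growth factor receptor FLT3 and CD1B were also among its 10 leading genes. It held 33.0% of the members in control replicate 1 and 33.1% in asthma replicate 11 but 3.26% in asthma replicate 10. The leading genes of this cluster go against the label, with FLT3 at 79.4 CPM.

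Cluster 5 (81 cells) held the genes best known for perivascular interstitial macrophages. LYVE1 was at 257 against 5.19 CPM in the other members and STAB1 at 1802 against 122 CPM in the other members, and the prostaglandin D synthase HPGDS, the iron exporter SLC40A1 and the chemokine CCL8 were also among its leading genes. FOLR2 itself was at 1535 CPM in cluster 5, against 509.6, 909.8, 337 and 476 CPM in clusters 1 to 4. Cluster 5 made up 18.3% of the members in asthma replicate 11 and 1.75% in control replicate 2.

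Cluster 6 (76 cells, median 2846 UMIs) was led by DCN, ITLN1, MGP and SFTPC, genes of stromal, mesothelial and alveolar epithelial cells, and 47 of its cells came from asthma replicate 11. Cluster 7 (12 cells) was led by GNLY, GZMB and NKG7 of cytotoxic lymphocytes. The leading genes of both clusters go against the label. Clusters 3, 4, 6 and 7, whose leading genes go against it, held 18.6%, 17.4%, 8.16% and 1.29% of the members. Clusters 1, 2 and 5 held 24.6%, 21.3% and 8.70%. All clusters were kept in the comparisons because their cells met the rule. The levels of other cell types are given beside some of the results that they touch.

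**Figure D3:**
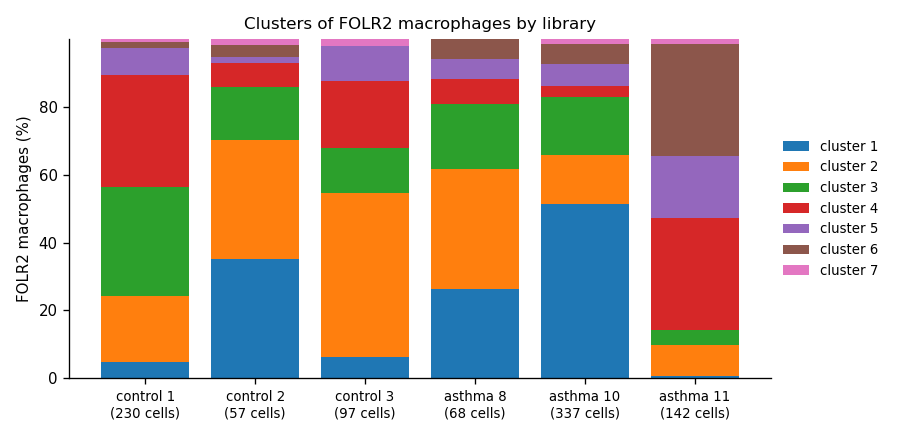
Composition of the FOLR2 macrophages of each library by cluster (percent of the members of that library, stacked to 100), with the number of members under each bar. Cluster 1 takes 51.3% in asthma replicate 10 and cluster 6 takes 33.1% in asthma replicate 11.

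The FOLR2 macrophages were then compared with the alveolar macrophages of the same libraries, to find which genes beyond the rule separate them. Among 9916 genes tested, 1690 (17%) were higher and 1816 (18.3%) lower in the FOLR2 macrophages by edgeR's quasi-likelihood test with the library as a block (thresholds of 0.05 on the adjusted p and 0.25 on the size of the log2 fold change). With library size only and no TMM scaling the split was 2551 higher and 1179 lower, and the median log2 fold change of all genes was 0.17 in place of 0.01. Genes higher in 6 of 6 libraries made up 16.7% of those tested, and genes lower in 6 of 6 made up 17.6%.

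The genes named here were changed the same way in 6 of 6 libraries. Each SE of a log2 fold change was computed back from the test, as its size over the square root of the F statistic. STAB1 was at 114 to 389 CPM (median 210.3) in the FOLR2 macrophages and 0 to 15.6 CPM (median 2.08) in the alveolar macrophages (log2 fold change 5.59, SE 0.48, adjusted p = 1.37e-05). MAMDC2, a secreted protein, was at 122 to 309 CPM (median 172) in the FOLR2 macrophages and 1.18 to 4.95 CPM (median 4.09) in the alveolar macrophages (log2 fold change 5.58, SE 0.2, adjusted p = 1.31e-07). CCL17, a chemokine that attracts T helper cells through its receptor CCR4, was at 65.3 to 1403 CPM (median 647) in the FOLR2 macrophages and 1.47 to 63.9 CPM (median 12.6) in the alveolar macrophages (log2 fold change 5.23, SE 0.45, adjusted p = 1.45e-05), lowest in control replicate 2 and highest in asthma replicate 8 among the FOLR2 macrophages. The remaining 9 include TMEM176A (mean 1041 ± 297 against 92.6 ± 129 CPM, log2 fold change 4.19), TMEM176B (mean 1399 ± 274 against 117 ± 128 CPM, log2 fold change 4.09), RGS1 (mean 395 ± 168 against 26.7 ± 22 CPM, log2 fold change 4.04) and F13A1 (mean 102 ± 20.6 against 9.24 ± 7.32 CPM, log2 fold change 3.6). They also include LTC4S (mean 176 ± 24.6 against 16.9 ± 10.1 CPM, log2 fold change 3.46), ABCA6 (mean 189.7 ± 67.1 against 18.2 ± 5.26 CPM, log2 fold change 3.33), CPVL (mean 1447 ± 281 against 207 ± 193 CPM, log2 fold change 3.2), OLFML3 (mean 266 ± 82.7 against 39.5 ± 30.5 CPM, log2 fold change 2.89) and MARCKS (mean 162 ± 29.3 against 24.5 ± 17.3 CPM, log2 fold change 2.87). Each mean is given with its SD over 6 libraries. F13A1 encodes the A chain of coagulation factor XIII, LTC4S makes leukotriene C4, RGS1 limits signalling of chemokine receptors, and CPVL is a carboxypeptidase of macrophages.

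Among the 11 named genes that were lower, AWAT2, a wax ester synthase, was at 0 to 1.84 CPM (median 0.391) in the FOLR2 macrophages and 3.6 to 264 CPM (median 210.5) in the alveolar macrophages (log2 fold change -7.74, SE 0.26, adjusted p = 1.08e-07). SCD, which desaturates fatty acids, was at 4.31 to 31.9 CPM (median 8.94) in the FOLR2 macrophages and 152 to 984 CPM (median 618) in the alveolar macrophages (log2 fold change -5.46, SE 0.32, adjusted p = 2.07e-06). MARCO, a scavenger receptor typical of alveolar macrophages, was at 4.69 to 53.6 CPM (median 16.7) in the FOLR2 macrophages and 469.7 to 1235 CPM (median 708) in the alveolar macrophages (log2 fold change -5.11, SE 0.33, adjusted p = 4.34e-06). Lower as well were the chitinase-like CHI3L1 (mean 6.94 ± 7.94 against 266 ± 68.9 CPM, log2 fold change -4.94), the elastase CELA2A (mean 11.3 ± 12.1 against 108 ± 101 CPM, log2 fold change -3.3) and FHL1 (mean 11.1 ± 7.97 against 106 ± 23.2 CPM, log2 fold change -3.25). The same held for the calprotectin chain S100A9 (mean 59.3 ± 47.7 against 527 ± 386 CPM, log2 fold change -3.13), the Wnt factor TCF7L2 (mean 24.1 ± 11.4 against 198 ± 52.9 CPM, log2 fold change -3.07), the transglutaminase TGM2 (mean 27.9 ± 11.9 against 233 ± 94.3 CPM, log2 fold change -2.92), BEX3 (mean 32.4 ± 10.8 against 246 ± 52.1 CPM, log2 fold change -2.91) and the pyruvate carrier MPC2 (mean 96.7 ± 24.6 against 649.6 ± 212 CPM, log2 fold change -2.72).

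**Figure D4:**
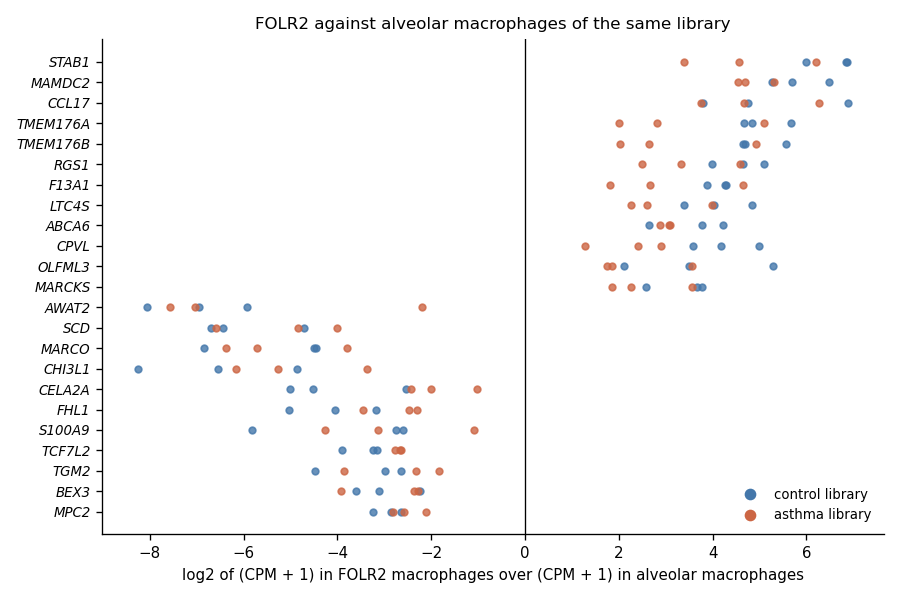
Difference between FOLR2 and alveolar macrophages of the same library for the 23 named genes, as the log2 ratio of CPM + 1, 1 point per library (control in blue, asthma in orange). All 6 points of each of the 12 upper genes lie above 0 and all 6 of each of the 11 lower genes lie below 0.

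The counts of each list below stand beside 17% higher and 18.3% lower of all genes, and a count near those shares is no result about its list. Of 15 tested genes on a list for interstitial macrophages, 11 were higher, 2 lower and 2 were not called, with a median log2 fold change of 2.05 against 0.01 over all genes. LGMN, a lysosomal protease, was at 671 to 1267 CPM (median 1090.3) in the FOLR2 macrophages and 175 to 487 CPM (median 247) in the alveolar macrophages (log2 fold change 1.9, SE 0.23, adjusted p = 0.000123). CCL8, a monocyte chemokine, had a log2 fold change of 3.32 and SLC40A1 one of 1.63. The haemoglobin receptor CD163 and the apoptotic cell receptor TIMD4 of the same list were lower in the FOLR2 macrophages, at log2 fold changes of -0.59 and -2.49. MERTK was at 44 ± 9.12 CPM and 44.4 ± 10.6 CPM in the alveolar macrophages and was not called.

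Some genes of the list were nearly absent from the alveolar macrophages. LYVE1 had 181 UMIs in the FOLR2 macrophages and 3 in the alveolar macrophages, a ratio per UMI of 215 with a 95% counting interval of 72.4 to 1052. It was found in 5 of 6 libraries, at 16.6, 0 and 26.7 CPM in the control libraries and 10.6, 10.2 and 45.4 CPM in the asthma libraries. CD209 had 120 UMIs against 8, a ratio of 53.4 (26.3 to 127). HPGDS, which belongs to the eicosanoid list, had 102 UMIs against 0, so that it was at least 121-fold higher when 3 UMIs over all alveolar libraries are taken as the limit that a count of 0 allows.

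The reverse held for the alveolar list, of which 12 genes beyond the rule were tested, 1 was higher, 8 lower and 3 were not called (median -1.68). PPARG, the nuclear receptor of alveolar macrophage identity, was at 32.9 to 105 CPM (median 77.4) in the FOLR2 macrophages and 329 to 411 CPM (median 383) in the alveolar macrophages (log2 fold change -2.46, SE 0.19, adjusted p = 8.00e-06). The chemokine CCL18 had a log2 fold change of -1.59 (adjusted p = 0.0197, edgeR), was lower in 5 of 6 libraries, and lost its call when control replicate 1, control replicate 3 or asthma replicate 11 was left out (adjusted p = 0.0678, 0.0524 and 0.0547). Of 13 genes common to macrophages, 4 were higher and 7 lower. CSF1R, the receptor for macrophage colony-stimulating factor, was at 829 to 1081 CPM (median 937) in the FOLR2 macrophages and 172 to 374 CPM (median 219) in the alveolar macrophages (log2 fold change 2.06, SE 0.15, adjusted p = 5.94e-06), while FCER1G, the common Fc receptor chain, and MRC1, the mannose receptor, were lower (log2 fold changes -0.88 and -0.8).

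Genes of antigen presentation were higher for 11 of 15 tested and lower for 0 (median 0.96), against 17% of all genes. HLA-DRA was at 12626 to 18944 CPM (median 17364) in the FOLR2 macrophages and 6079 to 15827 CPM (median 9470.4) in the alveolar macrophages (log2 fold change 0.83, SE 0.11, adjusted p = 0.000278). HLA-DMB, which helps to load peptides, and the costimulatory CD86 had log2 fold changes of 1.64 and 1.61. HLA-DQA1 varied widely between monkeys of both groups, at 49.3, 141 and 675 CPM in the control libraries and 39.4, 206 and 1066 CPM in the asthma libraries, and was above the alveolar level in 6 of 6 libraries. The other tested genes of the list, which include B2M, CD83 and CD40, were not called. The part of cluster 4, led by genes of dendritic cells, in these differences was not tested.

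Of 8 tested dendritic cell genes, 6 were higher and 0 lower (median 2.95), against 17% and 18.3% of all genes. FLT3 was at 5.29 to 57.9 CPM (median 14.4) in the FOLR2 macrophages and 0 to 3.89 CPM (median 0.376) in the alveolar macrophages (log2 fold change 4.96, SE 0.35, adjusted p = 5.45e-06), and the log2 fold changes of FCER1A, CLEC10A and the dendritic cell factor ZBTB46 were 3.83, 5.11 and 4.13. The 11 genes of this list in the files summed to 646, 456 and 548 CPM in the control libraries and 435, 422 and 515 CPM in the asthma libraries. IRF8 was the most abundant, and CLEC9A, which the rule sets to 0, and XCR1 had no UMI. FLT3 reached 79.4 CPM in cluster 4 and 10.4 CPM in cluster 2, and the part of cluster 4 in these differences was not tested.

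Of 24 tested scavenger receptors and genes for the uptake of dead cells, 9 were higher and 7 lower (median 0.14), against 17% and 18.3% of all genes. GAS6, the ligand that bridges dead cells to MERTK and AXL, was at 25.7 to 53.2 CPM (median 34.4) in the FOLR2 macrophages and 1.47 to 8.91 CPM (median 2.34) in the alveolar macrophages (log2 fold change 3.3, SE 0.26, adjusted p = 9.04e-06). Complement genes beyond C1Q gave 2 higher and 2 lower of 12 tested, which is near the shares of all genes. Of the lipid handling genes, 3 of 18 were higher, near the share of all genes, and 5 lower, and APOE, the most abundant, was at 15462 ± 5397 CPM against 15427 ± 4719 CPM and not called.

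Ferritin was lower. Against 17% and 18.3% of all genes, 3 of 12 tested iron and haem genes were higher and 6 lower, with the ferritin chains FTH1 at 15199 ± 4713 against 41335 ± 4796 CPM (log2 fold change -1.52) and FTL at 16089.6 ± 3135 against 27714 ± 6247 CPM (-0.79). Among lysosomal proteases and enzymes 5 of 19 were higher and 6 lower, against 17% and 18.3% of all genes. The cathepsin CTSC was higher (log2 fold change 0.96) and the cathepsin CTSD lower (-1.33). Of 6 tested transporters for folate and other solutes, 3 were higher and 2 lower.

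Of 31 tested cytokines and cytokine receptors, 17 were higher and 4 lower (median 0.42), against 17% and 18.3% of all genes, so that the lower count was near the share of all genes. IL10, an inhibitory cytokine, was at 21.7, 4.66 and 20.3 CPM in the control libraries and 31.9, 18.4 and 14.9 CPM in the asthma libraries and had a log2 fold change of 2.43 over the alveolar level, and IL18 had one of 1.73. Of 20 tested chemokines and chemokine receptors, 7 were higher and 4, near the share of all genes, were lower. CCL22, which shares the receptor of CCL17, had a log2 fold change of 3.25 at a mean of 9.82 CPM. On the list for type 2 activation, 9 of 20 were higher and 7 lower, with the factor IRF4 higher (log2 fold change 2.25) and MRC1, PPARG, CCL18 and TGM2 lower. The part of cluster 4, led by genes of dendritic cells, in the differences of CCL17, CCL22 and IRF4 was not tested.

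Of 18 tested eicosanoid genes 4 were higher, near the 17% of all genes, and 6 lower, against 18.3%. The thromboxane synthase TBXAS1 was higher (log2 fold change 2.23), as was LTC4S, while LTA4H, which makes leukotriene B4, was at 123 to 348 CPM (median 186) in the FOLR2 macrophages and 814 to 1499 CPM (median 1194) in the alveolar macrophages (log2 fold change -2.49, SE 0.18, adjusted p = 5.45e-06). PTGDS, a second prostaglandin D synthase, was lower on average (log2 fold change -3.13) and in 5 of 6 libraries. Of 24 matrix and remodelling genes, 9 were higher and 8 lower, against the same shares, and the growth factors PDGFB and VEGFA had log2 fold changes of 3.52 and 3.01, with TGFBI at 1.63.

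Of 27 tested transcription factors, 11 were higher and 8 lower, against 17% and 18.3% of all genes, ID3 among the higher at 74.3 to 288 CPM (median 189) in the FOLR2 macrophages and 27.1 to 82.4 CPM (median 35.6) in the alveolar macrophages (log2 fold change 2.1, SE 0.23, adjusted p = 7.10e-05). Immediate-early genes, which respond quickly to stimuli and to tissue dissociation, were higher for 13 of 20 and lower for 2 (median 0.47), against 17% and 18.3% of all genes, and FOS was higher by 0.69 on the log2 scale. Against the same shares, heat shock genes gave 1 higher and 5 lower of 10. Interferon genes gave 2 higher and 11 lower of 29, IFI6 by -0.97, with 16 not called, and cell cycle genes gave 0 higher and 3 lower of 14, the latter near the share of all genes. A list of macrophage genes taken from the study was chosen on these samples and is no independent evidence. It gave 3 higher (LTC4S, TMEM176B and CCL17), 11 lower (MRC1, MARCO, CCL18, FN1, MKI67, H2AZ1, ITGB2, CD69, PTGDS, SCD and FCER1G) and 7 not called (COTL1, AIF1, STMN1, IFI27, IDO1, ICAM1 and CD40) of 21 tested. FCER1G was on this list, but the study names it for mesenchymal cells.

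The counts for other cell types are given beside 17% higher and 18.3% lower of all genes, and most rest on too few genes to be read against them. Of 10 monocyte genes 1 was higher and 6 lower, of 4 neutrophil genes 0 and 2, of 9 genes of T and NK cells 1 and 0, and of 2 genes of B and plasma cells 0 and 1. Epithelial genes gave 0 higher and 1 lower of 7, stromal genes 1 and 0 of 8, endothelial genes 0 and 2 of 3, and mesothelial genes 0 and 0 of 3. Mast cell genes and erythroid and platelet genes were too low for a test.

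The comparison of asthma with control asked which genes of the FOLR2 macrophages changed after antigen challenge. Among 7167 genes tested by edgeR's quasi-likelihood test, 0 were higher and 1 (0.014%) was lower in asthma at the same thresholds. At an unadjusted p under 0.05 there were 342 genes (4.77%). In 642 genes (8.96%) the groups did not overlap, 334 (4.66%) with asthma higher and 308 (4.3%) with asthma lower. DESeq2 called 4 higher (CLU, EPAS1, ITGB2 and a gene without a symbol) and 3 lower (FCRLA, MMP9 and the mitochondrial gene ND4L). Quality control limited the share of mitochondrial genes to 25%, so the call of ND4L is no result.

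The gene called by edgeR was FCRLA, an Fc receptor-like gene known from B cells. Controls 1, 2 and 3 had 35, 12 and 25 of its UMIs and asthma monkeys 8, 10 and 11 had 0, 1 and 0, without overlap. These UMIs came from 25, 9 and 20 cells in control and 1 cell in asthma. FCRLA was at 16.1, 14 and 26.7 CPM in controls 1, 2 and 3 and at 0, 0.196 and 0 CPM in asthma monkeys 8, 10 and 11 (log2 fold change -6.55, SE 0.64, adjusted p = 0.0118, edgeR). This SE was computed from the F statistic and does not give the precision of a change that rests on 1 UMI in asthma. Per UMI, 72 in control against 1 in asthma gave a ratio of 129 with a 95% counting interval of 22.4 to 5168. The call was lost without control replicate 1, control replicate 3, asthma replicate 8, asthma replicate 10 or asthma replicate 11 (adjusted p from 0.0882 to 0.411), with log2 fold changes of FCRLA between -7.54 and -6.3, and the gene was too low for a test when at least 2 FOLR2 UMIs were asked.

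FCRLA was low in the alveolar macrophages, at 0.718, 1.18 and 0.826 CPM in the control libraries and 0.235, 0.343 and 0 CPM in the asthma libraries. In C1Q cells that lacked FOLR2 it was at 3.42, 0 and 16.2 CPM in the control libraries and 0, 0.51 and 0 CPM in the asthma libraries. The 8 genes for B and plasma cells in the files summed to 13.8, 14 and 22.5 CPM in the control libraries and 5.32, 9.0 and 32.9 CPM in the asthma libraries in the FOLR2 macrophages. IGKC was the most abundant and MS4A1 was at 0 by the rule, and the part of these genes in the FCRLA difference was not tested. Within the FOLR2 macrophages FCRLA was highest in clusters 2 and 3, at 11.8 and 13.7 CPM.

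Genes that were higher in asthma did not pass the adjusted test, and the following were those with the smallest unadjusted p among genes whose groups did not overlap. ITGB2, the common beta chain of leukocyte integrins, was at 126, 146 and 129 CPM in controls 1, 2 and 3 and at 287, 329.6 and 229 CPM in asthma monkeys 8, 10 and 11 (log2 fold change 1.08, SE 0.18, adjusted p = 0.494, edgeR). Every asthma library was above every control library. ITGAM, a partner chain of ITGB2, was at 99.5, 133 and 145 CPM in the control libraries and 168, 193 and 173 CPM in the asthma libraries and also without overlap. PFN1, which binds actin, was at 659, 477 and 530.3 CPM in the control libraries and 1219.6, 737 and 979.5 CPM in the asthma libraries (log2 fold change 0.81, SE 0.21, adjusted p = 1). In the alveolar macrophages ITGB2 was at 464, 513 and 552 CPM in the control libraries and 729.7, 566 and 438 CPM in the asthma libraries, where the groups overlapped.

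A further group of these genes is known from other lung cells. VWF, the von Willebrand factor of endothelial cells, was at 5.99, 7.0 and 6.42 CPM in controls 1, 2 and 3 and at 14.9, 28.2 and 24.3 CPM in asthma monkeys 8, 10 and 11 (log2 fold change 1.87, SE 0.34, adjusted p = 0.638). EPAS1, a hypoxia-inducible factor abundant in endothelium, was at 14.3, 5.83 and 13.9 CPM in the control libraries and 20.2, 52.1 and 55.5 CPM in the asthma libraries (log2 fold change 1.88), and CLU, a secreted chaperone, at 0.921, 2.33 and 4.28 CPM in the control libraries and 9.58, 13.3 and 34.4 CPM in the asthma libraries (3.12). The log2 fold change of CLU moved to 2.46 without control replicate 1, to 3.74 without control replicate 3 and to 4.38 with none of the alveolar genes. CLU and EPAS1 were at 222 and 521 CPM in cluster 6 and at most 4.87 and 30.3 CPM in any other cluster. Cluster 6 made up 1.74%, 3.51% and 0% of the members in the control libraries and 5.88%, 5.64% and 33.1% in the asthma libraries, without overlap. VWF was at 81 CPM in cluster 6 and between 11 and 31.4 CPM in the others.

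The sums of genes of other lung cells did not all move alike between the groups. The 8 endothelial genes, of which 2 were tested, summed to 94, 101 and 97.3 CPM in the control libraries and 190.5, 177 and 159.6 CPM in the asthma libraries, with PECAM1, which macrophages also carry, the most abundant and none at 0. The 11 stromal genes, of which 2 were tested, summed to 53.9, 68.8 and 22.5 CPM in the control libraries and 442, 152 and 68.8 CPM in the asthma libraries, with DCN the most abundant and none at 0. For the endothelial list every asthma library was above every control library, while for the stromal list asthma replicate 11 was level with control replicate 2. DCN had a log2 fold change of 2.91 (adjusted p = 1, edgeR), and it ranged from 1.37 without asthma replicate 8 and 1.44 at a mitochondrial maximum of 10% to 3.59 without control replicate 1, 4.08 at 2 or more FOLR2 UMIs and 5.54 with none of the alveolar genes. The 10 epithelial genes in the files, led by SFTPC, summed to 135, 90.9 and 55.6 CPM in the control libraries and 58.5, 323 and 304 CPM in the asthma libraries, with overlap. For the 6 mesothelial genes the sums were 55.7, 1302 and 7.48 CPM in the control libraries and 71.3, 148 and 16.4 CPM in the asthma libraries, also with overlap. The part of RNA from such cells in the differences of VWF, EPAS1 and CLU was not tested.

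The other 5 genes named as higher in asthma had log2 fold changes of 1.03 (PSTPIP2), 0.93 (MYO5A), 1.0 (WDR83), 0.8 (MANF, a factor of endoplasmic reticulum stress) and 0.77 (JPT1), with adjusted p of at least 0.952.

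On the lower side, PDE4B, a phosphodiesterase that breaks down cyclic AMP, was at 67.3, 81.6 and 66.3 CPM in controls 1, 2 and 3 and at 44.7, 36.4 and 36 CPM in asthma monkeys 8, 10 and 11 (log2 fold change -0.89, SE 0.18, adjusted p = 0.906, edgeR). PTGS2, the inducible cyclooxygenase, was at 42.4, 39.6 and 43.8 CPM in the control libraries and 23.4, 23.3 and 22.7 CPM in the asthma libraries (log2 fold change -0.86, SE 0.19, adjusted p = 0.906), with the 3 asthma libraries close together and below all controls. MMP9, a gelatinase, was at 18, 54.8 and 75.9 CPM in the control libraries and 3.19, 10.4 and 12.5 CPM in the asthma libraries (log2 fold change -2.33, SE 0.55, adjusted p = 0.916). In controls its UMIs came from few cells, 10, 10 and 8, so that it rested on a small part of the members, and the log2 fold change of MMP9 was -0.59 with no maximum on genes per cell, an alternative chosen after seeing the data. ND4L is 1 of the 13 mitochondrial genes whose share was limited to 25% in quality control. It was among the genes tested, but its tests are not read as a result. ND4L was at 485, 898 and 545 CPM in the control libraries and 359, 303 and 234 CPM in the asthma libraries, beside median mitochondrial shares of 3.46%, 5.98% and 5.23% in the control members and 4.35%, 4.31% and 2.43% in the asthma members. The part of this share in the ND4L difference was not tested.

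Further genes named as lower in asthma had log2 fold changes of -0.86 (GTF2B), -0.73 (TERF2IP), -0.74 (UHRF2) and -2.07 for 1 of 51 genes that share the small nuclear RNA symbol U2 (ENSMFAG00000009883), whose reads cannot be told apart with certainty. None of these passed the adjusted test.

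**Figure D5:**
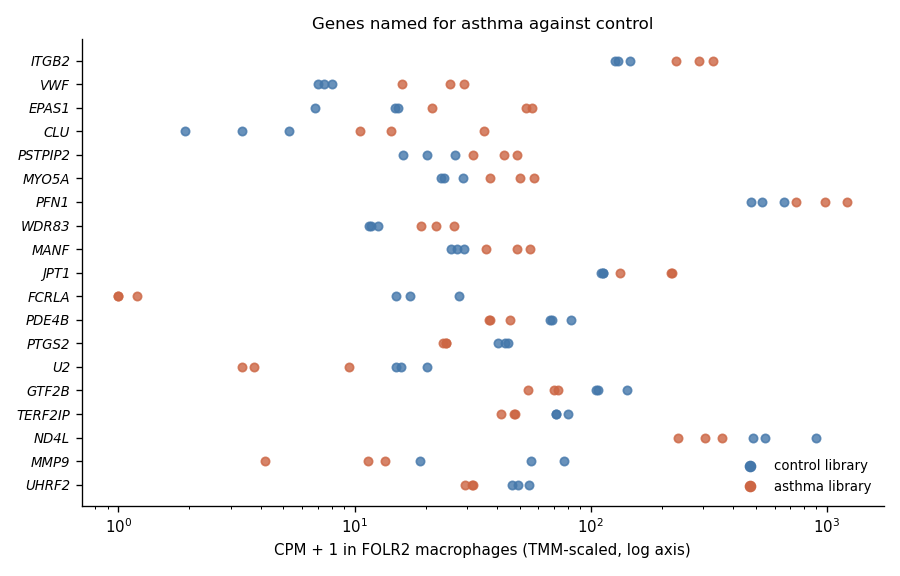
Level in CPM + 1 (TMM-scaled, log axis) of the 19 genes named for asthma against control in the FOLR2 macrophages, 1 point per library (control in blue, asthma in orange). The groups do not overlap for any of the 19, by the rule that chose them, and only FCRLA passed the adjusted edgeR test. ND4L is a mitochondrial gene that quality control limited, so its difference is no result.

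No list had a gene called by edgeR in asthma, FCRLA being on none. Among the lists with at least 10 tested genes, immediate-early genes had the lowest median, -0.57 over 18 tested against 0.00 over all genes, with 1 of 18 above 0 and 6 without overlap and lower in asthma (FOS, JUNB, BTG2, NR4A1, KLF6 and MCL1), against 4.3% of all genes. FOS was at 4935, 3189 and 3701 CPM in controls 1, 2 and 3 and at 2101, 3013 and 1271 CPM in asthma monkeys 8, 10 and 11 (log2 fold change -0.89, SE 0.29, adjusted p = 1, edgeR). NR4A1 was at 252, 156 and 247 CPM in the control libraries and 125, 140.3 and 127 CPM in the asthma libraries (log2 fold change -0.75). The summed level of the 20 immediate-early genes in the files was 17736, 11283 and 15062 CPM in the control libraries and 9659.6, 12374 and 6312 CPM in the asthma libraries, with the asthma replicate 10 value above that of control replicate 2. In the alveolar macrophages it was 11368, 7841 and 10044 CPM in the control libraries and 7982, 10680 and 3634 CPM in the asthma libraries, with asthma replicate 11 again the lowest.

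Complement genes were above 0 for 10 of 10 tested (median 0.46), against 3629 of 7167 genes in all, and 2 of them, ITGAM and ITGB2, were higher without overlap, against 4.66% of all genes. Interferon genes had a median of 0.43 over 24 tested, none without overlap. The 29 interferon genes in the files summed to 1046, 1308 and 1224 CPM in the control libraries and 974.8, 3802 and 762 CPM in the asthma libraries, so that asthma replicate 10 stood above all other libraries. In it IFI27 was at 1104 CPM against 8.75 to 79.3 CPM in the other 5 libraries and IFI6 at 912 against 103 to 159 CPM. The alveolar macrophages of the same library had IFI27 at 1452 CPM, against 0.826 to 79.2 CPM in the others.

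Genes of type 2 activation, the response that worm antigens are known to evoke, had a median of -0.0036 over 15 tested, and 7 of them were above 0. CCL17 was at 1008, 65.3 and 143 CPM in controls 1, 2 and 3 and at 1403, 427 and 868 CPM in asthma monkeys 8, 10 and 11 (log2 fold change 1.12, SE 0.81, adjusted p = 1, edgeR). The level of control replicate 1 lay above those of asthma replicates 10 and 11, and without control replicate 1 the log2 fold change of CCL17 was 3.09 (adjusted p = 0.705, edgeR). Leaving out any other single library gave 0.63 (without control replicate 2) to 1.46 (without asthma replicate 10). CLEC10A was at 122, 17.5 and 93 CPM in the control libraries and 13.8, 17.8 and 65.7 CPM in the asthma libraries (log2 fold change -1.36, SE 0.66, adjusted p = 1). Its log2 fold change ranged from -0.83 without control replicate 1 to -2.29 without asthma replicate 11. Cluster 4, of which CLEC10A is a leading gene, made up 33.0%, 7.02% and 19.6% of the members in the control libraries. In the asthma libraries it made up 7.35%, 3.26% and 33.1%, and its part in the CLEC10A difference was not tested. MRC1 was at 804, 925 and 1010.4 CPM in the control libraries and 1431, 1111 and 1067 CPM in the asthma libraries, without overlap. CCL18 was at 473, 1272 and 549.6 CPM in the control libraries and 3288, 464 and 156 CPM in the asthma libraries, with asthma replicate 8 the highest and asthma replicate 11 the lowest.

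The medians of the other lists are given beside 0.00 for all genes. They were 0.11 for 13 interstitial genes, -0.14 for 13 genes of antigen presentation, 0.08 for 22 scavenger genes, 0.19 for 16 lipid genes, 0.03 for 12 iron genes and 0.08 for 20 lysosomal genes. Medians were -0.11 for 14 chemokine genes, -0.03 for 26 cytokine genes, -0.11 for 21 matrix genes, 0.09 for 16 eicosanoid genes, -0.19 for 26 transcription factors, -0.15 for 10 heat shock genes, -0.34 for 6 cell cycle genes and 0.14 for 6 genes of folate and solute transport. Lower in asthma without overlap were 3 of the 16 eicosanoid genes (PTGS2, PLA2G4A and CYSLTR2) and 5 of the 26 transcription factors (IRF8, MITF, KLF4, KLF6 and NR4A1), against 4.3% of all genes. KLF6 and NR4A1 also count among the immediate-early genes above, and the transcription factor STAT3 was higher without overlap. Of the 21 matrix genes 2 (MMP2 and MMP9) were lower without overlap, and of the 22 scavenger genes 2 (MRC1 and GAS6) were higher, against 4.66% of all genes. For other macrophage and myeloid lists the medians were 0.18 for 8 alveolar genes, -0.04 for 13 genes common to macrophages, -0.02 for 8 monocyte genes, -0.26 for 7 dendritic cell genes, of which 2 were above 0 and IRF8 was lower without overlap, and -0.22 for 3 neutrophil genes. The lists of T and NK cells (4 tested, median -0.4), B and plasma cells (1 tested, -0.42) and mesothelial cells (1 tested, -2.7) were too short for a median to describe them. The 19 tested genes of the list taken from the study had a median of 0.17. MRC1 and ITGB2 were higher and TMEM176B lower in asthma without overlap, 3 of 19 against 8.96% of all genes.

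Whether asthma acted differently on FOLR2 and alveolar macrophages was tested as an interaction. Among 9916 genes, 0 were called in either direction by edgeR, 518 (5.22%) had an unadjusted p under 0.05, and DESeq2 called 2 higher and 9 lower. For FCRLA the difference in effect was -5.27 on the log2 scale (adjusted p = 0.658, edgeR), and for ITGB2 it was 0.9 (adjusted p = 0.343). The FCRLA difference between asthma and control libraries was thus not shown to be particular to the FOLR2 macrophages.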

How the data were processed

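Counts of unique molecular identifiers (UMIs) per gene and barcode were deposited by the authors for 6 lung libraries. The submitters' processing notes name Cell Ranger 2.1.1 and the matrix header names 4.0.0. The genome was macFas6. No columns of other series were found (0). Cells with 501 to 4999 genes and at most 25% of UMIs from 13 mitochondrial genes were kept, 25388 of 35133 barcodes. Scrublet's own threshold marked 10 cells, so none were removed, and the highest scores were left out as an alternative.

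Counts were summed per library and cell set and fitted by edgeR 4.0.16 (quasi-likelihood test, TMM, filterByExpr, Benjamini-Hochberg adjustment) in R 4.3.3 with limma 3.58.1. DESeq2 1.42.0 served as an alternative. The thresholds for a call were 0.05 on the adjusted p and 0.25 on the size of the log2 fold change. The genes of the rule and the 6 markers were left out of the counts against alveolar macrophages. CPM were scaled by TMM over the sums of the FOLR2 macrophages, the alveolar macrophages and the C1Q cells without FOLR2 of each library. Clusters were made with scanpy 1.11.5 and leidenalg 0.10.2 (1000 variable genes, 10 components, 20 neighbours, resolution 0.5). The fits for asthma against control and for FOLR2 against alveolar macrophages were tested on simulated data.

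Named against alveolar macrophages were the 12 genes per direction with the largest change among those changed alike in 6 of 6 libraries with a mean of at least 100 CPM in the higher set. Named for asthma were up to 10 per direction, filled by the smallest unadjusted p among genes whose groups did not overlap. Genes that the study names for macrophages and examples of the lists were also named. Some genes that met these rules are not reported here. The members and lists were chosen with earlier results of these data known. Other normalizations, filters, rules and the leaving out of each library were tried.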

Additional observations from a re-analysis of the deposited data

How the results depend on the processing

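The share of FOLR2 macrophages among all cells differed between asthma and control by -0.587 to 2.19 percentage points when single libraries were left out, and the share among C1Q macrophages by -2.37 to 9.77. The direction turned without asthma replicate 10 (-0.587 and -2.37) and, for the second share, without asthma replicate 11 (-0.269). In asthma against control, DESeq2 called 4 genes higher and 3 lower, with ND4L, whose call is no result, among the latter. No filter on low counts gave 78 and 62, and at least 2 FOLR2 UMIs gave 0 lower. Leaving out single libraries gave 0 to 3 lower (3 without control replicate 2) and 0 higher. Against alveolar macrophages, library size without TMM, an alternative chosen after seeing the data, gave 2551 higher and 1179 lower, in place of 1690 and 1816. For the difference in the asthma effect, DESeq2 gave 2 higher and 9 lower, no filter 86 and 98, none of FABP4, MCEMP1 and CHIT1 gave 4 and 2, and leaving out single libraries gave 0 to 4 higher (4 without asthma replicate 11) and 0 to 7 lower (7 without asthma replicate 8). The causes of these moves were not tested. Of the genes named, FCRLA and CCL18 lost their calls without single libraries, as given with their values. No paired analysis was possible because the groups share no replicate numbers. With 57 to 337 cells per library, genes of few UMIs such as FCRLA and MMP9 rest on few cells.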
